A study of Gallus gallus with 4 samples.

Results

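G protein-coupled receptors for transmitters, nucleotides and lipid mediators, together with the RGS genes that shorten their signals, were followed in the bursal surface epithelium of chickens. The bursa of Fabricius is the lymphoid organ of birds in which B cells form. Genes were taken by name: those whose symbol in the array annotation begins with GPR, P2RY, ADRA, ADRB, DRD, HTR, CHRM, S1PR, LPAR, PTGER, ADORA, RGS (RGS2 apart), MC or NPY, followed by a digit or R. This gave 121 of the 13009 named genes on the array, with 221 probe sets, and no ADRB gene was among them. Each gene was read from its probe set with the highest mean log2 value. The name rule also took in genes that are no such receptors: HTR3A, an ion channel subunit, MCRS1, MCRIP1 and MCRIP2, which encode intracellular regulators, and RGS7BP and RGS9BP, which anchor RGS proteins.

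The samples were 2 of follicle-associated epithelium (FAE), which covers the lymphoid follicles, and 2 of interfollicular epithelium (IFE), which lies between them. All came from Line-M chicks of 19 days, healthy and specific-pathogen-free, with no genetic or drug treatment named. Tissue was held in black ink for 5 min to show the FAE, then in 40 mM EDTA with 25 mM Hepes, where tissue for FAE stayed 5 min at room temperature and tissue for IFE 30 min at 37 °C, so the EDTA step and the epithelium cannot be told apart in any value below. The source name of the IFE samples reads FAE, and samples were grouped by title, which matches their cell type label. Whether the samples of a group were separate birds is not stated, and p-values therefore cover only their spread, which may be technical.

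Levels are scaled signals, linear array intensities brought to a common trimmed mean, and a positive log2 fold change means higher in FAE. A gene was called where limma, fitted over all 23063 tested probe sets, gave a Benjamini-Hochberg adjusted p under 0.05. With 2 samples against 2, an exact two-sided permutation test of 1 gene cannot give a p below 0.333, so each call leans on the spread shared over all probe sets. IFE replicate 2 stood apart in RNA quality, with a 3'/5' signal ratio of beta-actin of 31.2 against 14.4 to 18.6 on the other arrays, and in background level, at 1.02 against 0.671 to 0.722.

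These receptors cross the membrane with 7 helices and act through heterotrimeric G proteins. Receptors that couple to Gs raise cyclic AMP, those that couple to Gi lower it, and those that couple to Gq activate phospholipase C. RGS proteins speed GTP hydrolysis by G protein alpha subunits and so end the signal. On leukocytes such receptors read ADP, lysophospholipids, sphingosine 1-phosphate, oxysterols and prostaglandins, and in gut epithelium prostaglandin and adrenergic receptors regulate secretion and ion transport.

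In FAE, 7 of these genes were higher than in IFE: the dopamine receptor gene DRD5, the ADP receptor gene P2RY13, the orphan-named receptors GPR34 and GPR174, and the regulators RGS4, RGS14 and RGS18. Another 4 were lower: the adrenergic receptor gene ADRA2A, the serotonin receptor gene HTR1E, and GPR146 and GPR160. Of the 121 genes, 75 passed the filter on dim probe sets and were tested, so 9.33% were called higher and 5.33% lower. Over the brightest probe set of every named gene, 6.31% of 10388 were called higher and 3.96% lower, so these shares lay near the background of the array. At an unadjusted limma p under 0.05, 14 of the 75 were higher and 9 lower, against 1397 and 1467 of the 10388. Groups did not overlap for 22 tested genes that were higher in FAE (29.3%) and 24 that were lower (32%), against 26.7% and 32.5% over all named genes. The median log2 fold change of the 75 genes was 0.00, against -0.07 over all tested probe sets. Of the 75, 6 passed the filter only through their FAE signal (DRD5, GPR149, GPR162, GPR183, GPR35 and RGS19) and 6 only through their IFE signal (ADORA2A, DRD1, DRD2, GPR50, HTR4 and NPY1R), so differences among these were favoured by the filter.

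**Figure D1:**
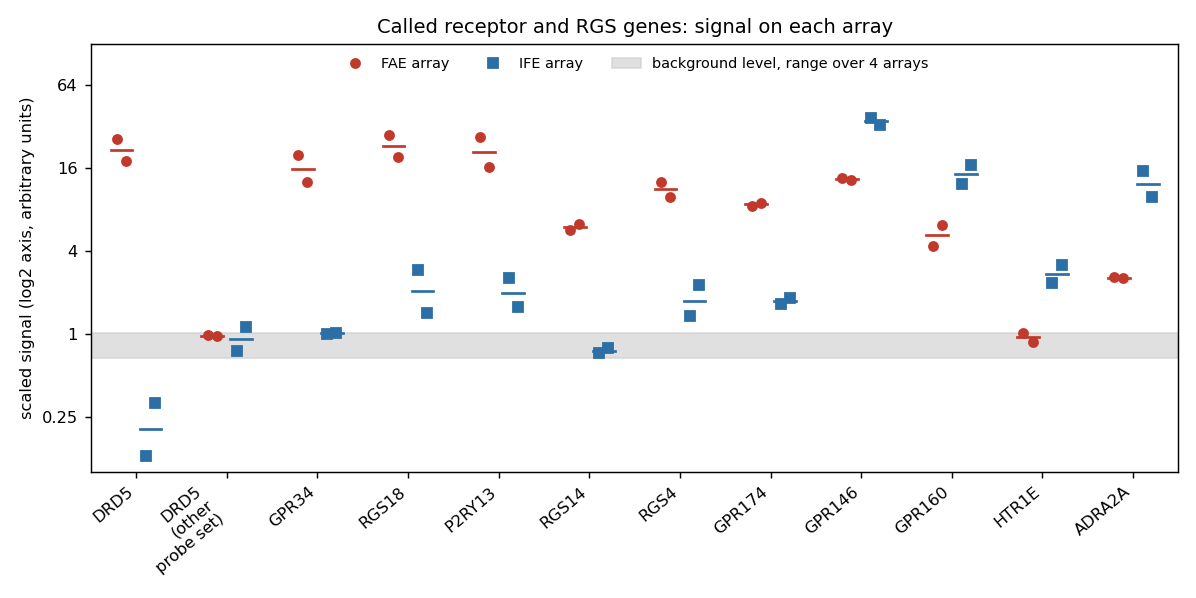
Scaled signal (vertical, log2 axis, arbitrary units) of the 11 called genes and of the second DRD5 probe set on each array, with FAE arrays as red circles, IFE arrays as blue squares, and a bar at the geometric mean of each pair. The grey band spans the background levels of the 4 arrays, from 0.671 to 1.02: DRD5 lies at 26.1 and 18.2 on the FAE arrays and under the band on each IFE array, while its second probe set lies in or near the band on all 4.

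The counts depended on single samples and on the scaling. On the values as deposited, which share a median of 1, 8 genes were higher and 2 lower, and the median over all tested probe sets was 0.06. Without FAE replicate 1, 4 genes were higher and 0 lower, and without FAE replicate 2, 6 were higher and 0 lower. Without IFE replicate 1, 18 were higher and 8 lower, and without IFE replicate 2, 11 and 7. Counts over the whole array grew as well, to 3567 higher and 2471 lower of 23063 probe sets without IFE replicate 1 and to 2464 and 1819 without IFE replicate 2. In each such fit the remaining sample of a group is assumed to vary like the other group. DRD5, GPR34, P2RY13 and RGS18 stayed called whichever sample was left out. GPR174, RGS4 and RGS14 lost theirs without FAE replicate 1 (adjusted p between 0.0502 and 0.0739), and GPR174 also without FAE replicate 2 (0.0545).

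Among the amine receptors, 12 of 29 were tested, 1 was called higher and 2 lower. Over all named genes, 6.31% were higher and 3.96% lower. DRD5 encodes a D1-type dopamine receptor that couples to Gs. Its brightest probe set had signals of 26.1 and 18.2 on the FAE arrays, against 0.130 and 0.317 on the IFE arrays. Both IFE values lay under the background level, so the increase is given as at least 25.4-fold (fitted log2 fold change 6.75, SE 0.48, limma adjusted p = 0.00208). The only other DRD5 probe set on the array read 0.979 and 0.967 on the FAE arrays, against 0.755 and 1.13 on the IFE arrays. There the groups overlapped, and the log2 fold change was 0.08 (SE 0.50, adjusted p = 0.945, 95% confidence interval -1.10 to 1.25). The 2 probe sets therefore disagreed, and the DRD5 increase rests on 1 of them.

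No other dopamine receptor was called. DRD1, another D1-type receptor, read 0.607 and 0.541 in FAE, both under background, and 0.860 and 1.23 in IFE (adjusted p = 0.430). DRD2, which couples to Gi, had 0.982 and 0.364 in FAE and 0.821 and 1.27 in IFE, and the groups overlapped. DRD3 and DRD4 were too dim to be tested.

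ADRA2A, the alpha-2A receptor for noradrenaline and adrenaline, couples to Gi. It had signals of 2.57 on both FAE arrays, against 15.3 and 9.82 on the IFE arrays. FAE was 4.76-fold lower (log2 fold change -2.25, SE 0.31, limma adjusted p = 0.00833). The call was lost without FAE replicate 1 (adjusted p = 0.0992), without FAE replicate 2 (0.0775) and with no intensity trend (0.0506), while its log2 fold change stayed at -2.25 in each. Its probe set is of the kind that can bind more than 1 transcript. ADRA2BL2, a paralog, had 1.06 and 0.480 in FAE and 0.337 and 1.12 in IFE, with overlapping groups.

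HTR1E encodes a serotonin receptor that couples to Gi. Its signals were 1.01 and 0.879 in FAE, against 2.35 and 3.17 in IFE, or -1.54 on the log2 scale (SE 0.36, adjusted p = 0.0487). This call sat at the threshold and was lost under 8 of the other settings, among them every other filter and normalization tried and leaving out either FAE sample or IFE replicate 2. Its other 2 probe sets were too dim to be tested. HTR4, a Gs-coupled receptor known from gut motility in mammals, read 0.531 and 0.124 in FAE, both under background, against 0.950 and 1.43 in IFE, and did not pass (adjusted p = 0.228). HTR5A at -1.12, HTR1D at -0.60, HTR1B at 0.15 and HTR1A at 0.03 did not pass either, nor did the channel subunit HTR3A at -0.57 (log2 fold changes).

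The other 17 amine receptors were dim. They comprised all muscarinic acetylcholine receptors measured (CHRM2, CHRM3, CHRM4 and CHRM5), the adrenergic receptors ADRA1A, ADRA1B, ADRA1D and ADRA2C, the dopamine receptors DRD3 and DRD4, and HTR1F, HTR2A, HTR2B, HTR2C, HTR6, HTR7 and HTR7L. Of the 29 amine receptors, 11 were not above background on any array.

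**Figure D2:**
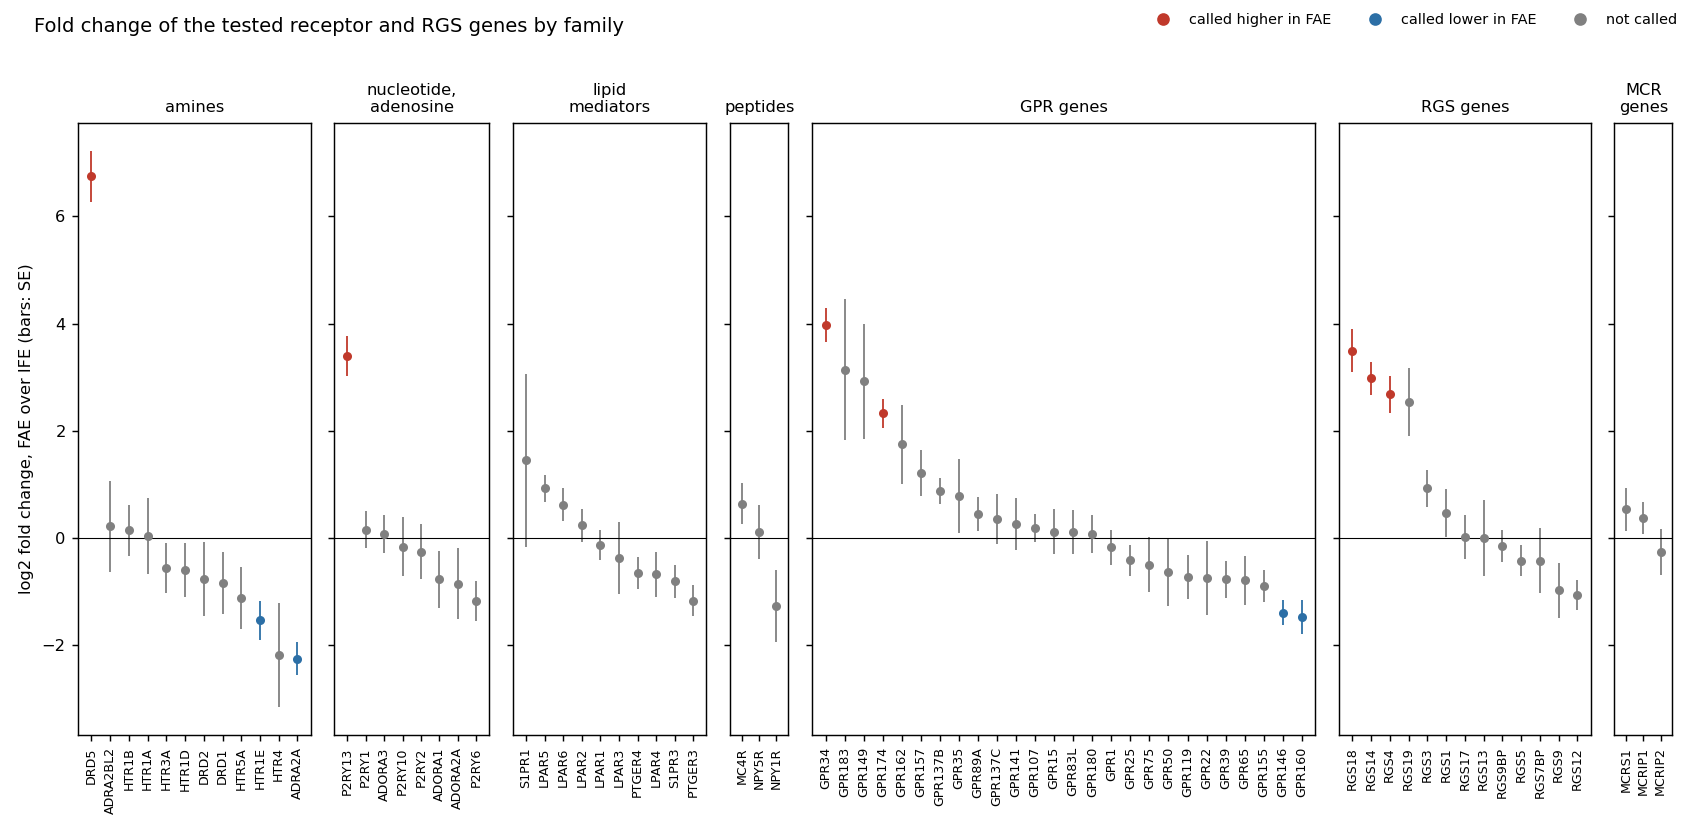
Log2 fold change of FAE over IFE (vertical, with SE bars) for the 75 tested genes, one panel per family and ordered by size within it. Red points were called higher in FAE, blue points lower, and grey points did not pass: DRD5 stands at a fitted 6.75, while the other tested amine receptors run from 0.22 down to -2.25. Both IFE signals of DRD5 lay under background, so its increase is given as at least 25.4-fold.

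Of 9 receptors for nucleotides and adenosine, 8 were tested, and 4 were above background on all 4 arrays. In this family 1 was called higher, against 6.31% of all named genes. P2RY13, a Gi-coupled receptor for ADP found on macrophages and microglia in mammals, read 27.2 and 16.3 in FAE, against 2.54 and 1.56 in IFE. Both FAE values exceeded both IFE values, and the gene was 10.6-fold higher, with a log2 fold change of 3.40 (SE 0.37, limma adjusted p = 0.00413). P2RY6, the Gq-coupled UDP receptor, had 8.92 and 14.2 in FAE, against 34.0 and 19.1 in IFE. Its groups did not overlap, but it did not pass (log2 fold change -1.18, adjusted p = 0.111). The value was -1.60 without IFE replicate 2 (adjusted p = 0.00872) and -0.76 without IFE replicate 1 (0.0977). A second P2RY6 probe set gave -0.82 and did not pass.

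The other tested members had small or imprecise differences. P2RY1, another ADP receptor, read 2.48 and 2.37 in FAE and 2.73 and 1.74 in IFE, giving a log2 fold change of 0.15 (95% confidence interval -0.66 to 0.97). The ATP and UTP receptor P2RY2 gave -0.26 and the lymphoid receptor P2RY10 gave -0.16. The adenosine receptors gave 0.08 for ADORA3, -0.77 for ADORA1 and -0.85 for ADORA2A, none of which passed. P2RY8, which confines B cells to germinal centres in humans, was dim.

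GPR34 and GPR174 are receptors for lysophosphatidylserine in mammals, where GPR34 is known from microglia and GPR174 from lymphocytes. GPR34 had signals of 20.0 and 12.6 in FAE, against 0.999 and 1.02 in IFE. It was 15.8-fold higher in FAE (log2 fold change 3.98, SE 0.32, limma adjusted p = 0.00232), and its signal on IFE replicate 2 lay at the background level of that array. GPR174 read 8.56 and 8.94 in FAE, against 1.66 and 1.83 in IFE, a 5.02-fold increase (log2 fold change 2.33, SE 0.27, adjusted p = 0.00483). Its other probe set gave 5.47 and 6.03 in FAE and 1.51 and 1.07 in IFE, and was called too (log2 fold change 2.18, adjusted p = 0.0101).

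Of the other GPR genes, GPR146 and GPR160 were lower in FAE. GPR146, a receptor that affects plasma cholesterol in mice, had 13.5 and 13.2 in FAE, against 37.3 and 32.96 in IFE (log2 fold change -1.39, SE 0.24, adjusted p = 0.0170). GPR160, an orphan receptor, had 4.36 and 6.22 in FAE, against 12.3 and 16.9 in IFE (log2 fold change -1.47, SE 0.31, adjusted p = 0.0353). Neither call held without FAE replicate 1 (adjusted p = 0.285 for GPR146 and 0.439 for GPR160), without FAE replicate 2 (0.205 and 0.151) or without the intensity trend (0.0801 and 0.110), and GPR160 also missed the threshold on the values as deposited (0.0533).

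GPR137B, a lysosomal membrane protein that acts on mTORC1, missed the threshold on its brightest probe set, with 35.0 and 27.9 in FAE and 16.7 and 17.2 in IFE (log2 fold change 0.88, adjusted p = 0.0789). Both of its other probe sets were called higher, at 1.31 (adjusted p = 0.0323) and 1.93 (0.0103). On all 3, the lower FAE signal exceeded the higher IFE signal.

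GPR183 is the oxysterol receptor that guides B cells in mice. It had 2.32 and 1.27 in FAE, against 0.781 and 0.0488 in IFE, and did not pass (adjusted p = 0.206). GPR149 had 2.05 and 1.66 in FAE and 0.740 and 0.0801 in IFE, and GPR162 had 1.39 and 1.88 against 0.958 and 0.243, both short of the threshold (adjusted p = 0.156 and 0.210). In all 3, IFE replicate 1 was above background and IFE replicate 2 far under it. Each passed when IFE replicate 1 was left out (adjusted p between 0.00614 and 0.0158), a fit in which the low array stands alone for IFE, and none passed without IFE replicate 2 (0.0629 to 0.267).

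In total, 26 of 41 GPR genes were tested, 2 were called higher and 2 lower, and their median log2 fold change was 0.11. Over all named genes, 6.31% were higher and 3.96% lower. Among those that did not pass, the zinc-sensing receptor GPR39 had 8.30 and 15.6 in FAE and 19.1 and 19.7 in IFE, and GPR155 had 7.28 and 6.53 in FAE and 10.6 and 15.5 in IFE. GPR157 signals were 8.02 and 7.96 in FAE and 5.39 and 2.21 in IFE, giving a log2 fold change of 1.21 (adjusted p = 0.147). The chemerin receptor gene GPR1 and the trafficking-related GPR107 gave -0.17 and 0.18. The proton-sensing receptor GPR65 gave -0.79 on its brightest probe set and 0.52 on another, neither of which passed. Dim GPR genes numbered 15, among them GPR55, GPR4, GPR17, GPR83 and GPR85.

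Lipid mediator receptors were well represented and none was called, with 10 of 12 tested by limma. At an unadjusted p under 0.05, 1 was higher and 2 were lower, against 1397 and 1467 of 10388 over all named genes. PTGER4, the Gs-coupled EP4 receptor for prostaglandin E2, had 37.0 and 35.7 in FAE and 74.3 and 43.9 in IFE. The groups did not overlap, but the log2 fold change of -0.65 did not pass (95% confidence interval -1.35 to 0.04, adjusted p = 0.234), and a second probe set gave 0.10. Its IFE arrays differed: without IFE replicate 2 the value was -1.03 (adjusted p = 0.00569), and without IFE replicate 1 it was -0.27 (0.265). PTGER3, the Gi-coupled EP3 receptor, read 2.33 and 2.95 in FAE and 6.33 and 5.50 in IFE, just short of the threshold (log2 fold change -1.17, SE 0.29, adjusted p = 0.0544). It passed with quantile normalization (adjusted p = 0.0403) and with the stricter filter (0.0490), but not on the values as deposited (0.104), and its second probe set gave -0.31.

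Receptors for lysophosphatidic acid gave values of both signs, and 0 of 6 passed. LPAR5 had 16.3 and 18.7 in FAE and 9.68 and 8.76 in IFE (log2 fold change 0.92, SE 0.25, adjusted p = 0.0739). LPAR6 had 20.5 and 13.8 in FAE and 9.27 and 12.9 in IFE (0.62, adjusted p = 0.287). LPAR1 differed little, with 10.7 and 8.18 in FAE and 11.03 and 9.49 in IFE, giving a log2 fold change of -0.13 (95% confidence interval -0.78 to 0.52). LPAR2 gave 0.24, LPAR3 -0.38 and LPAR4 -0.68. Of the sphingosine 1-phosphate receptors, S1PR3 had 1.54 and 1.64 in FAE and 2.64 and 2.91 in IFE (-0.80, adjusted p = 0.172). S1PR1, which draws lymphocytes out of lymphoid organs in mice, had 0.760 and 0.888 in FAE and 0.0513 and 1.77 in IFE, so its IFE arrays disagreed and no direction was resolved. S1PR4 and PTGER2 were dim.

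Peptide receptors were mostly dim, with 3 of 8 tested and 3 not above background on any array. MC4R, a melanocortin receptor of the brain's appetite circuits, had 1.83 and 1.60 in FAE and 1.002 and 1.20 in IFE (log2 fold change 0.64, adjusted p = 0.360). NPY1R, the Y1 receptor for neuropeptide Y, read 0.308 and 0.677 in FAE, both under background, and 1.04 and 1.17 in IFE (adjusted p = 0.308). NPY5R gave 0.11. By limma 0 of the 3 passed, also at an unadjusted p under 0.05, and MC2R, MC5R, NPY2R, NPY4R and NPY7R were dim.

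Of 13 tested RGS genes, 3 were higher and 0 lower in limma, where 6.31% of all named genes were higher and 3.96% lower. At an unadjusted p under 0.05, 5 were higher and 1 lower, against 1397 and 1467 of 10388 over all named genes. RGS18, expressed in blood cells and platelets in mammals, had 27.7 and 19.2 in FAE, against 2.93 and 1.43 in IFE. It was 11.3-fold higher (log2 fold change 3.50, SE 0.40, limma adjusted p = 0.00479). RGS14, which binds Gi alpha subunits at an RGS domain and a GoLoco motif, read 5.65 and 6.31 in FAE, against 0.727 and 0.789 in IFE, a 7.88-fold increase (log2 fold change 2.98, SE 0.31, adjusted p = 0.00345). The RGS14 signal on IFE replicate 2 lay under background, so the fold may be overstated, and its second probe set was dim in both groups. RGS4, a regulator of Gi and Gq signals known mainly from brain, had 12.7 and 9.94 in FAE, against 1.35 and 2.26 in IFE, a 6.42-fold increase (log2 fold change 2.68, SE 0.34, adjusted p = 0.00672).

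RGS19 had near-identical replicates, with 1.65 and 1.60 in FAE and 0.274 and 0.285 in IFE, both IFE values under background, and missed the threshold (at least 1.90-fold, adjusted p = 0.0558). It passed on the values as deposited (adjusted p = 0.0497), without the intensity trend (0.0319) and with an offset of 0.5 (0.0312), but not with no filter (0.0744). RGS1, a regulator abundant in activated B cells of mammals, had 11.4 and 9.51 in FAE and 4.69 and 12.1 in IFE. Its groups overlapped, and leaving out IFE replicate 2 gave a log2 fold change of 1.15 (adjusted p = 0.0122), while leaving out IFE replicate 1 gave -0.22. RGS12 had 2.14 and 1.87 in FAE and 4.17 and 4.20 in IFE (log2 fold change -1.07, adjusted p = 0.0698).

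Probe sets of RGS3 and RGS17 gave differing values. The brightest RGS3 probe set gave a log2 fold change of 0.93 (29.1 and 25.3 in FAE, 19.6 and 10.4 in IFE), and its other tested probe sets gave 1.86, 0.12 and -0.66, none of which passed. RGS17 gave 0.01 on its brightest probe set and did not pass on another, where both FAE values lay under background (0.451 and 0.680 in FAE, 1.79 and 2.27 in IFE, at least 2.98-fold lower, adjusted p = 0.0598). That other RGS17 probe set passed the filter only through its IFE signal (mean 2.03, against 0.565 in FAE). RGS5, RGS9, RGS9BP, RGS7BP and RGS13 lay between -0.98 and 0.00 and did not pass. RGS6, RGS7, RGS10, RGS11, RGS16 and RGS20 were dim. In all, 24 genes had more than 1 tested probe set, and counted apart, 10 of 104 probe sets were higher in FAE and 4 lower. Over all tested probe sets of the array, 5.22% were higher and 3.01% lower.

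**Figure D3:**
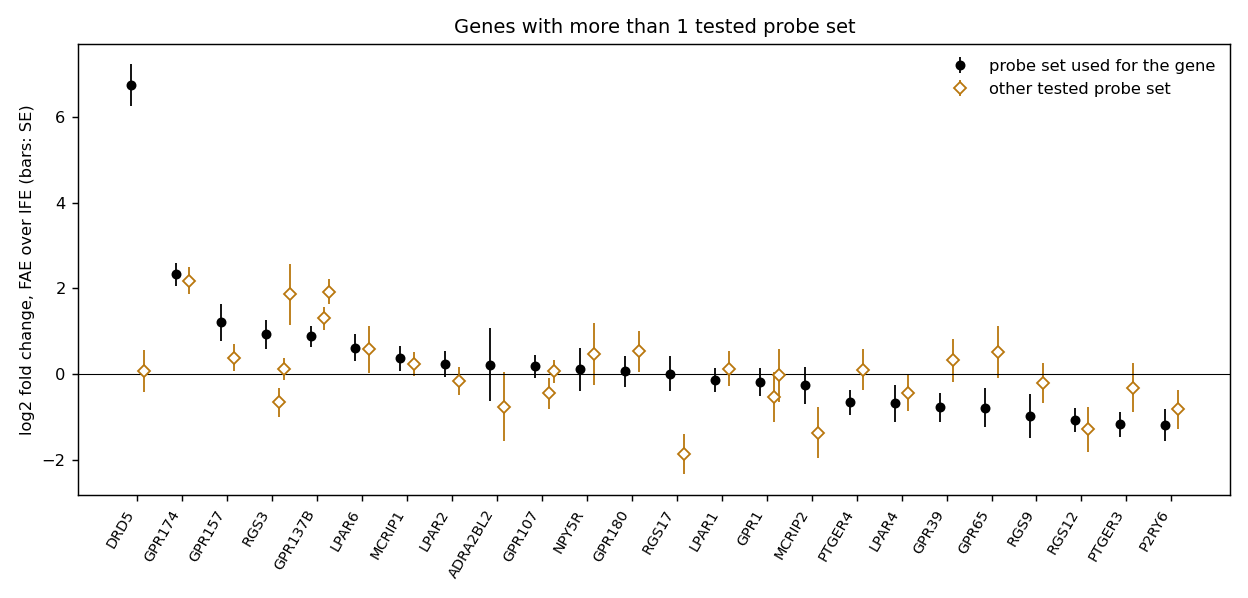
Log2 fold change of FAE over IFE (vertical, with SE bars) for the 24 genes with more than 1 tested probe set, with the probe set used for the gene as a black circle and the others as open diamonds. GPR174 was called higher on both of its probe sets, and GPR137B on all but its brightest. DRD5 has a fitted 6.75 on its brightest probe set, where both IFE signals lay under background, and 0.08 on the other.

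The 3 MCR genes, which are no receptors, were tested and 0 passed by limma, also at an unadjusted p under 0.05. MCRS1 had 35.2 and 32.97 in FAE and 36.5 and 15.2 in IFE, so only IFE replicate 2 was low.

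Dim genes numbered 46, and 22 of them lay under background on all 4 arrays. Their signals ran from 0.0213 to 1.60. For these no fold is given, and a low signal on this array does not show that a gene was not expressed.

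Lists of downstream genes, and the lists that follow them, were read from the same fit, where 6.31% of all named genes were higher and 3.96% lower. Of 22 tested G protein subunits, 2 were higher and 0 lower, with a median log2 fold change of -0.03, against -0.07 over all tested probe sets. These were GNAI2, a Gi alpha subunit, with 21.6 and 16.5 in FAE against 7.62 and 3.22 in IFE (log2 fold change 1.93, adjusted p = 0.0410), and GNG10, a gamma subunit (1.92, adjusted p = 0.0318). The Gs alpha gene GNAS, through which DRD5 signals, had 97.4 and 96.8 in FAE and 92.2 and 130 in IFE (-0.17), and its relative GNAL gave -0.10. Among receptor kinases and arrestin-domain genes, 1 of 9 was higher: GRK3, which phosphorylates active receptors, had 40.0 and 38.4 in FAE against 15.6 and 15.4 in IFE (log2 fold change 1.34, adjusted p = 0.0175).

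Effectors of cyclic AMP and phospholipase C had 7 of 27 tested genes higher and 2 lower (median 0.63), where 6.31% of all named genes were higher and 3.96% lower. The phosphodiesterase PDE3B changed by 3.12 (SE 0.30, limma adjusted p = 0.00287), with 35.6 and 30.7 in FAE against 3.12 and 4.65 in IFE. ADCY7, an adenylyl cyclase of blood cells, changed by 2.11 (adjusted p = 0.00672), the protein kinases C PRKCB and PRKCA by 2.39 and 1.29, and PLCG2, the phospholipase C of B cells, by 1.92. PLCG1, its widely expressed relative, went the other way at -1.14 (adjusted p = 0.0391), as did the phosphodiesterase PDE4B at -1.03 (0.0424), which is named after its value was seen. Inositol trisphosphate receptors ITPR3 and ITPR1 made up the other 2 called increases, at 1.38 (limma adjusted p = 0.0395) and 1.498 (0.0476). The ITPR1 signal on IFE replicate 2 lay under background, so its fold may be overstated. No phospholipase C beta gene was called: PLCB2 was at least 1.81-fold higher (adjusted p = 0.0690), PLCB4 gave -0.74 (0.434), and PLCB1 was dim. Both IFE values of PLCB2 lay under background, and it passed the filter only through its FAE signal.

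Calls among the genes that make, move or remove the ligands are given by list, where 6.31% of all named genes were higher and 3.96% lower. None of 7 tested genes for amine synthesis, transport and breakdown passed in limma (median -0.59, 1 lower at an unadjusted p under 0.05), and the dopamine synthesis genes TH and DDC were dim, with DDC at 0.312 and 0.0839 in FAE and 0.695 and 0.511 in IFE. MAOA, which degrades amines, had 97.4 and 127 in FAE and 174 and 410 in IFE (adjusted p = 0.102). For nucleotides, 1 of 12 was higher and 1 lower (median -0.21). ENTPD1, the ectoenzyme that removes ATP and ADP, had 7.16 and 5.75 in FAE against 0.796 and 0.426 in IFE (log2 fold change 3.46, limma adjusted p = 0.00500). Its signal on IFE replicate 2 lay under background, so the fold may be overstated. ENTPD1 passed the filter only through its FAE signal (IFE mean 0.611), so its difference was favoured by the filter. ADA, which breaks down adenosine, had 44.8 and 48.5 in FAE against 87.7 and 100.1 in IFE (-1.01, adjusted p = 0.0333). For lipid mediators, 1 of 16 was higher and 0 lower (median 0.23): PLPP1, which dephosphorylates lysophosphatidic acid, changed by 1.62 (adjusted p = 0.0338). The prostaglandin enzymes PTGS2, at 1.29 (adjusted p = 0.0828), and HPGD, at -1.19 (0.0520), did not pass.

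**Figure D4:**
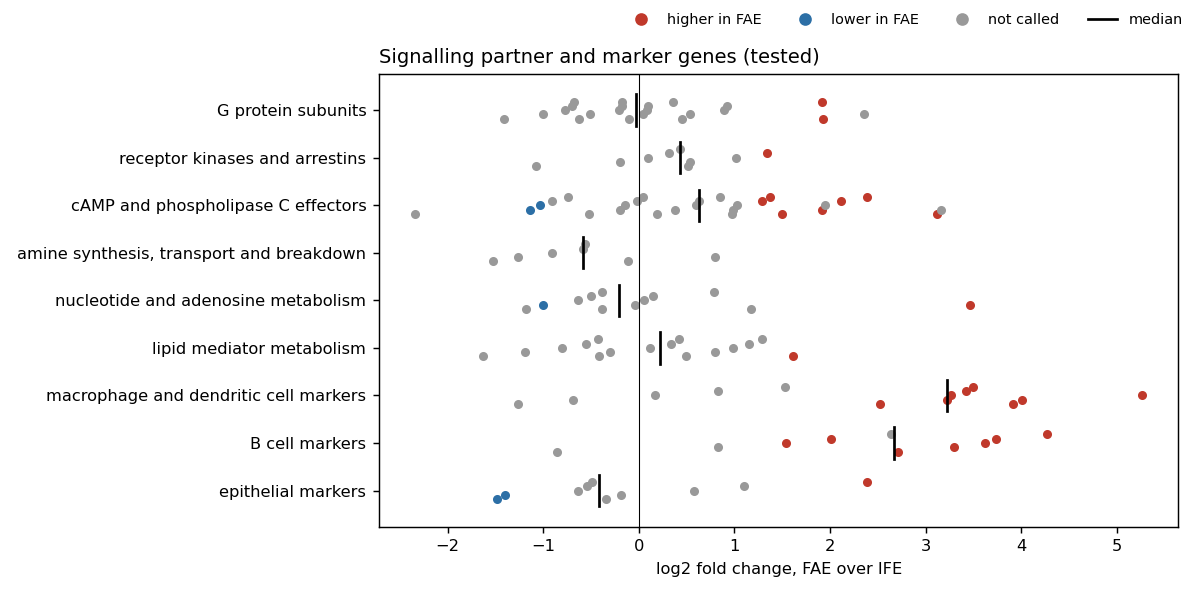
Log2 fold change of FAE over IFE (horizontal) for tested genes of 6 lists of signalling partners and 3 lists of cell type markers, with the list median as a black bar. Red genes were called higher in FAE, blue lower, and grey did not pass: medians of the partner lists lie between -0.59 and 0.63, and those of the macrophage and B cell lists at 3.23 and 2.67.

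Markers of other cell types moved on the same arrays. Over all named genes, 6.31% were called higher and 3.96% lower. At an unadjusted limma p under 0.05, 1397 of the 10388 were higher and 1467 lower. Of 13 tested macrophage and dendritic cell markers, 8 were higher in FAE and 0 lower. Among the 8, C1QC passed the filter only through its FAE signal (mean 3.72, against 0.340 in IFE). The summed signal of the list was 1316 and 1343 in FAE and 491.5 and 541.4 in IFE. Most of the IFE sum was CD74, which did not pass, with 390.3 and 524.6 in FAE and 361.1 and 449.2 in IFE (0.17, limma adjusted p = 0.674). Of 10 B cell markers, 7 were higher and 0 lower, whose signals summed to 516.3 and 522.4 in FAE and to 123.0 and 106.2 in IFE. CSF1R, of the macrophage and dendritic cell list, had 125.1 and 98.1 in FAE and 11.1 and 8.67 in IFE. Of the uncalled markers of that list, IRF8 had 3.94 and 3.87 in FAE and 12.6 and 7.03 in IFE (-1.27, limma adjusted p = 0.0719), and MARCO gave -0.69, so at an unadjusted p under 0.05 the list held 10 higher and 1 lower. CD79B, a part of the B cell receptor, had 15.2 and 20.9 in FAE and 1.59 and 2.06 in IFE. Of the uncalled B cell markers, PAX5 had 1.44 and 0.859 in FAE and 1.52 and 2.65 in IFE (-0.85, limma adjusted p = 0.315). At an unadjusted p under 0.05 the B cell list held 9 higher and 0 lower. CD72, with 243.4 and 258.9 in FAE and 40.9 and 10.2 in IFE, was a large part of the B cell sums. Of T cell markers 1 of 5 tested was higher (CD3E), and the summed signal of the list was 59.2 and 50.6 in FAE and 28.96 and 21.6 in IFE. The T cell list held 3 higher and 0 lower at an unadjusted limma p under 0.05. Endothelial markers were mixed, with 1 of 4 higher (CDH5, with 13.9 and 9.195 in FAE and 0.953 and 1.03 in IFE) and a median of -0.53. EGFL7 had 2.50 and 2.53 in FAE and 4.54 and 7.95 in IFE (-1.25, limma adjusted p = 0.075), VWF gave -1.28, and KDR, TEK and TIE1 were dim. The signals of the list summed to 18.6 and 14.98 in FAE and to 9.11 and 13.5 in IFE, most of the FAE sum being CDH5. In limma none of 7 smooth muscle and fibroblast, 7 neuron and enteroendocrine, or 1 erythrocyte and thrombocyte markers passed (0, 1 lower and 1 higher at an unadjusted p under 0.05). The part of these cells in the receptor and RGS values was not tested, and in such bulk samples fewer cells of a type and less RNA per cell cannot be told apart.

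The 10 epithelial markers were above background on all 4 arrays. EPCAM had 315.2 and 412.2 in FAE and 501.1 and 554.1 in IFE, and CDH1 had 245.3 and 320.5 in FAE and 393.6 and 483.6 in IFE, neither of which passed. In FAE, 1 was higher (VIL1) and 2 were lower (ELF3 and CDH17), with a median of -0.42 and signals that summed to 1115 and 1411 in FAE and to 1893 and 2029 in IFE. The epithelial list held 2 higher and 5 lower at an unadjusted limma p under 0.05, against 1397 and 1467 of 10388 over all named genes.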

How the data were processed

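RNA of 2 FAE and 2 IFE samples was amplified by a 2-cycle protocol, biotin-labelled and hybridised to single-colour arrays, per the labels' protocols. The deposited values are linear intensities, 1 per probe set and array, made with MAS5 per the submitters' processing notes (version and settings: not given in the sources used here). Every column had its median at 1 and its lowest value at 0.01. Depth does not apply to arrays, and the 4 arrays limit the precision.

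From these, 96 array controls were left out of 38535 probe sets. Each array was scaled to a common mean trimmed by 2% at each end. Values were then put on a log2 scale with no offset. Probe sets whose mean scaled signal reached the 40th percentile (0.695) were tested, which kept 23063 and left out 15376. The comparison used limma 3.58.1 under R 4.3.3, with an intensity trend in eBayes and no replicate block. Its p-values are two-sided and Benjamini-Hochberg adjusted over all tested probe sets, and the script was tested on simulated data. The background of an array was the 95th percentile of 744 unnamed probe sets without the chicken prefix, and a fold is a lower bound where a group lay under it on both arrays. Of the 38439 probe sets, 27168 named 1 gene, 177 several and 11094 none, by the platform annotation. All but 3 of the 121 genes (P2RY13, GPR55 and GPR142) have their Entrez ID in the gene table of assembly bGalGal1.mat.broiler.GRCg7b, under the same symbol. No coordinates are given.

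The genes and lists were chosen with earlier results of these data known. Every tested gene could be named, with full statistics for called genes, all DRD5 probe sets, the 6 largest changes each way and the 8 with the highest mean signal. Of partner lists, called genes were named, up to 6 by adjusted p. Further list genes (GNAS, GNAL, ITPR1, ITPR3, PDE4B, PLCB1, PLCB2, PLCB4, TH, DDC, MAOA, PTGS2, HPGD and the markers) and second probe sets were named after their values were seen. Alternatives were other scalings, filters, an offset, no intensity trend, leaving out each sample, a replicate block and counting all probe sets. Samples with the same replicate number did not deviate together (correlation of deviations 0.02 over tested probe sets), so the numbers were not used as pairs. Marker lists covered macrophages and dendritic cells, B cells, T cells, epithelium, endothelium, smooth muscle and fibroblasts, neurons and enteroendocrine cells, and erythrocytes and thrombocytes.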

Additional observations from a re-analysis of the deposited data

How the results depend on the processing

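Of the genes higher in FAE, 7 by the main settings, between 4 and 18 were called when 1 sample was left out, and 7 to 10 under every other alternative. Of those lower, 4 by the main settings, between 0 and 8 were called when 1 sample was left out, 2 on the values as deposited, 0 without the intensity trend, and 3 or 4 otherwise. With the replicate number as a replicate block the counts were 7 and 4, with the same 11 genes, and the block changed no other call. The 7 increases kept their calls under each scaling, filter, offset and trend setting, and the losses among the 4 decreases were of GPR160 and HTR1E on the values as deposited, of HTR1E with quantile normalization and either other filter, and of all 4 without the trend. The whole array moved likewise, from 1204 probe sets higher and 695 lower to 449 and 102 without the trend, to 191 and 44 without FAE replicate 1, to 358 and 168 without FAE replicate 2, to 3567 and 2471 without IFE replicate 1, and to 2464 and 1819 without IFE replicate 2. The causes were not tested. DRD5 kept its call on its brightest probe set in every alternative. Its fitted log2 fold change lay between 4.96 (offset of 0.5) and 7.39, with 6.10 to 7.39 when 1 sample was left out. Both IFE signals of that probe set lay under background, so these folds may be overstated. Of 791 values for single probe sets, 706 kept direction and side of the threshold, 22 lost and 28 gained a call, and 35, over 26 probe sets, changed sign, none of them called. Outside leaving out samples, these were GPR180 with quantile normalization (-0.017) and RGS13 with the offset (-0.066). With 1 sample left out, log2 fold changes ranged from -0.042 to 0.20 for ADORA3, -0.65 to 0.79 for ADRA2BL2, -0.21 to 0.37 for the second DRD5 probe set, -0.55 to 0.20 for GPR1, -0.040 to 0.40 for GPR107, -0.30 to 0.82 for GPR141, -0.22 to 0.35 for GPR180, -1.64 to 0.16 for GPR22, -1.17 to 0.17 for GPR75, -0.054 to 0.26 for GPR83L, -0.62 to 0.69 for HTR1A, -0.40 to 0.69 for HTR1B, -0.32 to 0.060 for LPAR1, -0.064 to 0.53 for LPAR2, -1.04 to 0.29 for LPAR3, -0.10 to 1.16 for MCRS1, -0.46 to 0.68 for NPY5R, -0.17 to 0.48 for P2RY1, -0.71 to 0.39 for P2RY10, -0.67 to 0.16 for P2RY2, -0.22 to 1.15 for RGS1, -0.92 to 0.92 for RGS13, -0.43 to 0.45 for RGS17, -0.89 to 0.041 for RGS7BP, -0.32 to 0.0096 for RGS9BP and -1.11 to 1.56 for S1PR1.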
